A study of Homo sapiens with 8 samples.

Results

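The 10 genes described here belong to the BCL2 family, the proteins that decide whether a cell's mitochondria release the signals that start apoptosis. They were taken by name and not by a rule on measured values, although earlier results of these data were known. The anti-apoptotic side holds BCL2, BCL2L1 (which encodes BCL-XL), MCL1 and BCL2A1. The pro-apoptotic side holds the effectors BAX and BAK1 and the BH3-only genes BBC3 (PUMA), PMAIP1 (NOXA), BCL2L11 (BIM) and BMF. All 10 were present among the 35238 gene symbols of the count table, and 9 of them were among the 15085 genes with enough counts to be tested.

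The cells were MP38, an established human uveal melanoma line with mutant BAP1. They were grown for 24 h in one of 4 conditions with 2 libraries in each. The control wells received 0.1% DMSO, the solvent that the drug-treated wells also contained. The other wells received 40 nM romidepsin or 40 nM quisinostat, which inhibit histone deacetylases (HDACs), or 1200 nM mivebresib, which inhibits the BET proteins that read acetylated histones. The doses were chosen to alter the cells' appearance without excessive death, so they were not matched for strength. Each library came from a separate well of one cell line, and p-values therefore measure the spread between wells, pooled over the 4 groups.

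Anti-apoptotic BCL2 proteins keep BAX and BAK1 from forming pores in the outer mitochondrial membrane. BH3-only proteins work against them by occupying their binding groove, and BIM and PUMA bind all the main anti-apoptotic proteins whereas NOXA prefers MCL1. Once pores have formed, cytochrome c leaves the mitochondria, binds APAF1 and activates CASP9. In melanocytic cells BCL2 is a known target of the lineage factor MITF, and transcription of BIM and BMF is known to be regulated in the response to HDAC inhibitors in several tumour types.

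Total counts ran from 28483235 to 29359024 per library. Levels below are normalized counts relative to library size (CPM), scaled with TMM factors, which place most genes near no change. The markers of melanocytic cells were present, with 7 of 8 above 1 CPM on average in every group and only DCT near 0. Markers of immune cells summed to at most 0.665 CPM and those of fibroblast, epithelial and endothelial cells to at most 10.8 CPM in any library. Replicate libraries differed most in the control, with a chi-square per degree of freedom of 58.1 between the controls and 9.52 to 9.79 between the others. The test pools the spread of a gene over all groups, so the wider spread of the controls was not fitted separately. Several members were affected, and the value without a control library is given wherever it changes a call. In bulk RNA, fewer cells that express a gene and less of its RNA per cell cannot be told apart.

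Mivebresib changed 6 of the 9 tested members, quisinostat 6 and romidepsin 3, and only BCL2L11 rose with all 3 drugs. A call here means an adjusted p below 0.05 in the quasi-likelihood test of edgeR, where p-values were adjusted by Benjamini-Hochberg over all 15085 genes. With romidepsin, 2 members rose and 1 fell, when 31% of all tested genes were called. With quisinostat 2 rose and 4 fell, when 53.2% of all genes were called. Scaling by library size alone or by upper-quartile factors left 3 calls with quisinostat, 2 higher and 1 lower, and raised the share of increases among all calls from 52.7% to 72.4% and 65.4%. With mivebresib 4 rose and 2 fell, against 46.2% of all genes. The share of members called was therefore close to that of all genes with romidepsin and 1 or 2 genes above it with the other drugs. Over the tested members the log2 FC had a median of -0.03 (romidepsin), -0.25 (quisinostat) and 0.12 (mivebresib), and over all tested genes it was -0.01, 0.00 and 0.01. In a test for any difference among the 4 groups, 7 of the 9 members passed, as did 74.2% of all genes. A log2 FC beyond 1.5, the study's second threshold, was reached as well by 0 members with romidepsin (4.08% of all genes), 0 with quisinostat (12.2%) and 1 with mivebresib (8.32%). The members that missed the test among the groups were BCL2L1 (adjusted p = 0.0753) and BAX (adjusted p = 0.0633). The 3 drug comparisons share the same 2 control libraries, so they are not independent of each other.

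**Figure D1:**
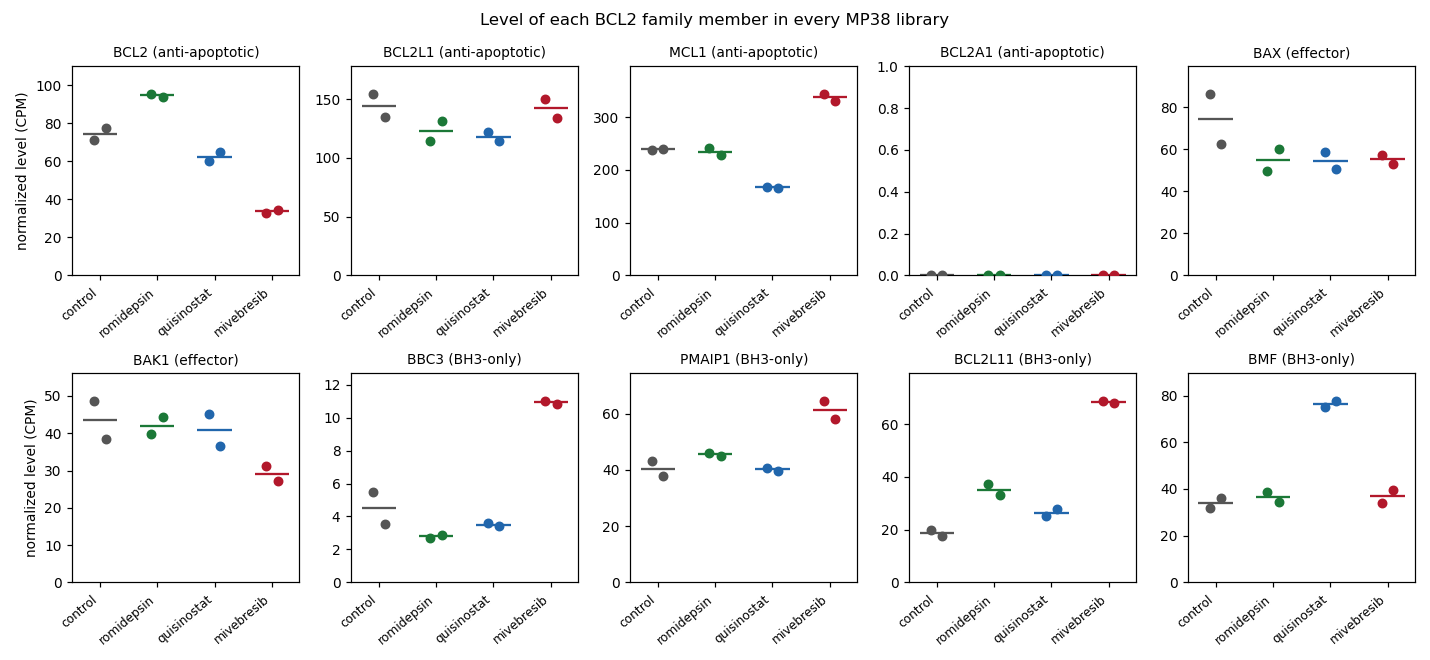
Normalized level in CPM (vertical axes, each starting at 0) of the 10 BCL2 family members in every library, by treatment group, with points for the 2 libraries and a line at their mean. BCL2L11 stood at 69.0 and 68.1 CPM with mivebresib and at 19.7 and 17.5 CPM in the control, whereas BMF was set apart by quisinostat alone, and BCL2A1 was at 0 in all 8 libraries.

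Among the anti-apoptotic genes, BCL2 rose with romidepsin and fell with quisinostat and mivebresib. BCL2 (ENSG00000171791, chr18:63123346-63320128, minus strand, GRCh38) is the founding member of the family. It stood at 71.4 and 77.7 CPM in the control libraries, 95.7 and 94.2 CPM with romidepsin, 60.0 and 65.1 CPM with quisinostat, and 33.1 and 34.4 CPM with mivebresib. The groups did not overlap, and their order from romidepsin down to mivebresib held in every library. BCL2 fell to 0.452-fold of the control with mivebresib (log2 FC -1.14, SE 0.083, edgeR adjusted p = 1.91e-05). It rose 1.27-fold with romidepsin (log2 FC 0.35, SE 0.081, edgeR adjusted p = 0.013). The decrease with quisinostat was smaller (log2 FC -0.25, SE 0.081, edgeR adjusted p = 0.0282).

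The directions with romidepsin and mivebresib differed when the drugs were compared directly, with a log2 FC of -1.49 for mivebresib against romidepsin (edgeR adjusted p = 5.38e-06). Quisinostat also differed from romidepsin, although both inhibit HDACs (log2 FC -0.60, edgeR adjusted p = 0.000958). The rise with romidepsin lost its call without romidepsin replicate 1 (log2 FC 0.34) or without romidepsin replicate 2 (log2 FC 0.36). It also lost it with only the 4 libraries of the comparison (log2 FC 0.37). The decrease of BCL2 with quisinostat was lost with library size alone as the scaling (log2 FC -0.05) and with upper-quartile factors (log2 FC -0.12). A mean of at least 5 CPM (log2 FC -0.16) and only the 4 libraries of the comparison (log2 FC -0.25) also removed the call. So did leaving out control replicate 2, either romidepsin library or either quisinostat library (log2 FC -0.33 to -0.19).

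MCL1 (ENSG00000143384, chr1:150574551-150579738, minus strand) encodes a short-lived anti-apoptotic protein that is the main partner of NOXA. Its level was 238.3 and 239.8 CPM in the control and 241.6 and 227.7 CPM with romidepsin. It was 168.6 and 166.1 CPM with quisinostat and 344.9 and 331.5 CPM with mivebresib. The quisinostat libraries lay below every other library and the mivebresib libraries above, while romidepsin overlapped the control. MCL1 fell to 0.7-fold with quisinostat (log2 FC -0.51, SE 0.078, edgeR adjusted p = 0.000723) and rose 1.41-fold with mivebresib (log2 FC 0.50, SE 0.078, edgeR adjusted p = 0.00101). The 2 drugs differed 2.02-fold (log2 FC 1.02, SE 0.079, edgeR adjusted p = 1.58e-05). With romidepsin the log2 FC was -0.03, with a 95% interval from -0.20 to 0.15, and it turned positive under the scaling by library size alone (0.05), upper-quartile factors (0.06) and a mean of at least 5 CPM (0.03). The direct difference of 1.02 kept its call in every alternative fit.

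BCL2L1 (ENSG00000171552, chr20:31664452-31723989, minus strand) stood at 154.6 and 134.4 CPM in the control, 114.6 and 131.1 CPM with romidepsin, 121.8 and 114.1 CPM with quisinostat, and 150.4 and 133.9 CPM with mivebresib. Libraries of both HDAC inhibitors lay below both controls, and those of mivebresib overlapped them. The decrease passed with quisinostat by a narrow margin (log2 FC -0.29, SE 0.108, edgeR adjusted p = 0.0489). It did not pass with romidepsin (log2 FC -0.23, 95% interval -0.48 to 0.01, edgeR adjusted p = 0.133), where it did without control replicate 2 (adjusted p = 0.025). With mivebresib the log2 FC of BCL2L1 was -0.02, with an interval from -0.27 to 0.22. The quisinostat call was lost with library size alone (log2 FC -0.09), upper-quartile factors (log2 FC -0.16) and a mean of at least 5 CPM (log2 FC -0.20). No filter on low counts (log2 FC -0.31), the replicate block (log2 FC -0.29) and only the 4 libraries of the comparison (log2 FC -0.29) also removed it. So did leaving out control replicate 1 or any single drug library (log2 FC -0.33 to -0.19).

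BCL2A1 (ENSG00000140379, chr15:79960889-79971446, minus strand), an NF-kappaB and MITF target that is often expressed in skin melanoma, had 0 counts in all 8 libraries. At these depths a count of 0 allows a level of up to 0.0949 to 0.11 CPM per library, with the same TMM scaling, where counting error alone is considered. No fold change was computed for it. The gene-level counts of BCL2L1, MCL1 and BCL2L11 do not separate isoforms, although MCL1 and BCL2L1 are known to make short forms that promote rather than prevent apoptosis.

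The effectors BAX and BAK1 did not rise with any drug. BAX (ENSG00000087088, chr19:48954815-48961798, plus strand) is held inactive in the cytosol until BH3-only proteins engage it. It stood at 86.4 and 62.7 CPM in the control libraries, 49.6 and 60.2 CPM with romidepsin, 58.7 and 50.5 CPM with quisinostat, and 57.2 and 53.2 CPM with mivebresib. All 6 drug libraries lay below both controls, which were themselves far apart. The log2 FC of BAX was -0.44 with romidepsin (edgeR adjusted p = 0.0663), -0.45 with quisinostat (edgeR adjusted p = 0.042) and -0.43 with mivebresib (edgeR adjusted p = 0.0538), each with an SE of 0.16. The quisinostat libraries differed from the romidepsin libraries by a log2 FC of -0.01, with a 95% interval from -0.37 to 0.36.

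These values of BAX turned on the control libraries. Without control replicate 2, all 3 decreases were called (log2 FC -0.67 to -0.65), and without control replicate 1 none was (log2 FC -0.20 to -0.17). The call with quisinostat was also lost without either quisinostat or either mivebresib library (log2 FC -0.55 to -0.36). Library size alone (log2 FC -0.25) and upper-quartile factors (log2 FC -0.32) removed it too. So did a mean of at least 5 CPM (log2 FC -0.355) and only the 4 libraries of the comparison (log2 FC -0.45). DESeq2 called the decreases with romidepsin (adjusted p = 0.0484) and mivebresib (adjusted p = 0.034).

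BAK1 (ENSG00000030110, chr6:33572547-33580293, minus strand), which resides in the outer mitochondrial membrane, stood at 48.8 and 38.4 CPM in the control, 39.7 and 44.4 CPM with romidepsin and 45.1 and 36.7 CPM with quisinostat. It stood at 31.2 and 27.2 CPM with mivebresib, below the 6 other libraries. BAK1 fell with mivebresib to 0.669-fold (log2 FC -0.58, SE 0.147, edgeR adjusted p = 0.0117), a call that was lost without mivebresib replicate 2 (log2 FC -0.48, adjusted p = 0.0932). The libraries of the HDAC inhibitors overlapped the control, with a log2 FC of -0.05 for romidepsin (95% interval -0.38 to 0.28) and -0.09 for quisinostat (95% interval -0.42 to 0.24). Both values were positive under the scaling by library size alone (0.02 and 0.11) and upper-quartile factors (0.03 and 0.04), and with a mean of at least 5 CPM (0.01 and 0.001). BAK1 was also lower with mivebresib than with romidepsin (log2 FC -0.53, edgeR adjusted p = 0.0168) and quisinostat (log2 FC -0.49, edgeR adjusted p = 0.0197). The first of these direct calls was lost without romidepsin replicate 2 (adjusted p = 0.102) or mivebresib replicate 2 (adjusted p = 0.118), and the second without quisinostat replicate 1 (adjusted p = 0.139) or mivebresib replicate 2 (adjusted p = 0.135).

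Among the members, the 4 BH3-only genes showed the largest increases. With mivebresib 3 of the 4 rose, with quisinostat 2 did, and with romidepsin 1 rose and 1 fell. Of all tested genes, 22.2% rose with mivebresib, 28% with quisinostat and 15.2% with romidepsin. The genes that rose were not the same, since BMF was called only with quisinostat and BBC3 and PMAIP1 rose only with mivebresib.

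BCL2L11 (ENSG00000153094, chr2:111119378-111168447, plus strand) encodes BIM, which binds all the main anti-apoptotic proteins and can activate BAX directly. It had 557 and 480 counts in the control, 1082 and 965 with romidepsin, 791 and 872 with quisinostat, and 1887 and 1893 with mivebresib. In CPM these were 19.7 and 17.5 in the control, 37.2 and 33.2 with romidepsin, 25.0 and 27.8 with quisinostat, and 69.0 and 68.1 with mivebresib. Every drug library lay above both controls, and the 4 groups did not overlap. BCL2L11 rose 3.68-fold with mivebresib (log2 FC 1.88, SE 0.1, edgeR adjusted p = 4.86e-06), 1.89-fold with romidepsin (log2 FC 0.92, SE 0.1, edgeR adjusted p = 0.000428) and 1.42-fold with quisinostat (log2 FC 0.50, SE 0.101, edgeR adjusted p = 0.00315). The increase with mivebresib was the only change of a member against the control that passed both thresholds. None of these 3 calls was lost in any of the alternative fits, leaving out single libraries included.

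Mivebresib raised BCL2L11 above both HDAC inhibitors, by a log2 FC of 0.96 over romidepsin (SE 0.096, edgeR adjusted p = 8.99e-05) and 1.38 over quisinostat (SE 0.098, edgeR adjusted p = 9.85e-06). Quisinostat stood below romidepsin (log2 FC -0.41, SE 0.098, edgeR adjusted p = 0.0118), but this difference was not called without romidepsin replicate 1 (adjusted p = 0.0974), without quisinostat replicate 1 (adjusted p = 0.0966) or with library size alone (adjusted p = 0.0569). Exons of BCL2L11 overlap the long non-coding RNA MIR4435-2HG on the other strand in the GENCODE annotation. Whether counting kept the strand is not given in the sources used here, so their reads could not be separated. The 3 genes whose log2 CPM followed BCL2L11 most closely over the 8 libraries, among the 9839 tested genes averaging 3 or more in log2 CPM, were PAWR (Pearson r = 0.99), SSB (r = 0.98) and RPAP3 (r = 0.98). Their changes were smaller, with a log2 FC with mivebresib of 0.44, 0.68 and 0.59. These correlations describe 8 libraries in 4 groups and were not tested.

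BBC3 (ENSG00000105327, chr19:47220822-47232766, minus strand) encodes PUMA, which binds all the main anti-apoptotic proteins. It was the least abundant tested member, with 155 and 97 counts in the control, 78 and 84 with romidepsin, 114 and 107 with quisinostat, and 302 and 301 with mivebresib. These counts correspond to 5.49 and 3.54 CPM in the control, 2.68 and 2.89 CPM with romidepsin, 3.61 and 3.41 CPM with quisinostat, and 11.1 and 10.8 CPM with mivebresib. The mivebresib libraries stood above all others, the romidepsin libraries below all others, and the quisinostat libraries overlapped the control. BBC3 rose 2.42-fold with mivebresib (log2 FC 1.27, SE 0.187, edgeR adjusted p = 0.000745). It was 3.92-fold higher with mivebresib than with romidepsin (log2 FC 1.97, SE 0.197, edgeR adjusted p = 8.86e-05) and 3.11-fold higher than with quisinostat (log2 FC 1.64, SE 0.19, edgeR adjusted p = 0.000137).

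The decrease of BBC3 with romidepsin was less stable (log2 FC -0.70, SE 0.209, edgeR adjusted p = 0.0352). It was lost without control replicate 1 (log2 FC -0.32), without any single drug library (log2 FC -0.76 to -0.65) and in limma-voom (adjusted p = 0.0524). In edgeR it was also lost with library size alone (adjusted p = 0.0579) and with upper-quartile factors (adjusted p = 0.0577). Only the 4 libraries of the comparison removed the call too (edgeR adjusted p = 0.13). With quisinostat the log2 FC of BBC3 was -0.37 (95% interval -0.83 to 0.09, edgeR adjusted p = 0.157), and it was called without control replicate 2 (log2 FC -0.65, adjusted p = 0.00657).

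PMAIP1 (ENSG00000141682, chr18:59899948-59904306, plus strand) encodes NOXA, which binds MCL1 and promotes its degradation. It stood at 43.1 and 37.7 CPM in the control, 46.2 and 45.1 CPM with romidepsin, 40.8 and 39.7 CPM with quisinostat, and 64.7 and 58.0 CPM with mivebresib. Mivebresib was above all other libraries, romidepsin just above the control and quisinostat within it. PMAIP1 rose 1.52-fold with mivebresib (log2 FC 0.60, SE 0.093, edgeR adjusted p = 0.000963), and mivebresib also exceeded romidepsin (log2 FC 0.43, edgeR adjusted p = 0.00529) and quisinostat (log2 FC 0.61, edgeR adjusted p = 0.000628). With romidepsin the log2 FC of PMAIP1 was 0.18 (edgeR adjusted p = 0.182), and it passed without control replicate 1 (log2 FC 0.30, adjusted p = 0.0375). With quisinostat it was -0.004 (95% interval -0.22 to 0.21), and turned positive with library size alone (0.20), upper-quartile factors (0.12) and a mean of at least 5 CPM (0.09). MCL1 and PMAIP1, whose products bind each other, thus both rose with mivebresib.

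BMF (ENSG00000104081, chr15:40087890-40108892, minus strand), a BH3-only gene whose product is held at the cytoskeleton in healthy cells, responded to quisinostat alone. It stood at 32.0 and 35.9 CPM in the control, 38.7 and 34.6 CPM with romidepsin, 75.0 and 77.9 CPM with quisinostat, and 34.1 and 39.7 CPM with mivebresib. The quisinostat libraries were well above the other 6, which overlapped each other. BMF rose 2.25-fold with quisinostat (log2 FC 1.17, SE 0.105, edgeR adjusted p = 4.3e-05). Its log2 FC was 0.11 with romidepsin (95% interval -0.13 to 0.35) and 0.12 with mivebresib (95% interval -0.12 to 0.36).

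The direct comparisons gave a log2 FC of 1.06 for quisinostat over romidepsin (SE 0.105, edgeR adjusted p = 0.000248) and -1.05 for mivebresib against quisinostat (SE 0.105, edgeR adjusted p = 5.99e-05). BMF was called with quisinostat, and in both direct comparisons, under every alternative fit. Exons of BMF overlap the antisense transcript BMF-AS1, and exons of BCL2L1, MCL1 and BAK1 overlap ABALON, ADAMTSL4-AS1 and GGNBP1 in the same annotation.

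**Figure D2:**
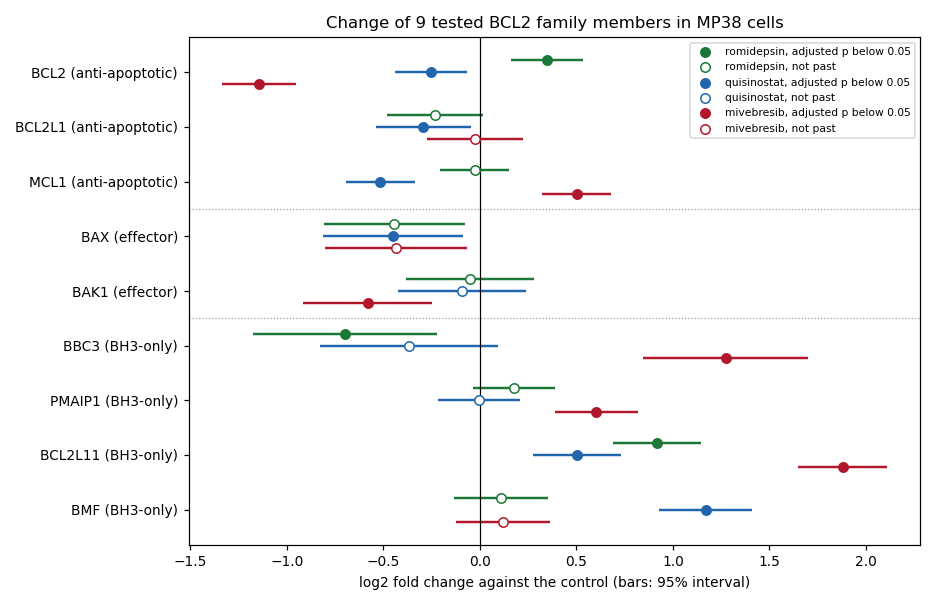
Log2 FC against the control (horizontal axis) of the 9 tested members, grouped by role, for romidepsin, quisinostat and mivebresib, with bars for the 95% interval and filled points where the adjusted p was below 0.05. With mivebresib BCL2L11 (1.88) lies farthest above 0 and BCL2 (-1.14) farthest below, quisinostat alone moves BMF (1.17), and the 3 intervals of BAX nearly coincide.

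Compared with each other, quisinostat and romidepsin differed in 4 of the 9 members, when 35.6% of all genes differed. Of these 1 was higher and 3 were lower under quisinostat, against 21% and 14.6% of all genes. Mivebresib differed from romidepsin in 6 members, against 48.9% of all genes, with 4 higher (23.7% of all genes) and 2 lower (25.2%). It differed from quisinostat in 7, against 57.7% of all genes, with 4 higher (26.2%) and 3 lower (31.5%). Past both thresholds was only BBC3, which was higher with mivebresib than with romidepsin and than with quisinostat (9.22% and 14.3% of all genes), and no member between the HDAC inhibitors (5.59%). The members that separated the 2 HDAC inhibitors were BCL2, MCL1 and BCL2L11, which were lower with quisinostat, and BMF, which was higher. MCL1 differed between them by a log2 FC of -0.49 (SE 0.078, edgeR adjusted p = 0.00211).

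Upstream windows are shown for BCL2L11, PMAIP1 and BMF, chosen by name among the BH3-only genes that rose. Each was cut where an annotated exon or the RefSeq gene began. The window of BBC3, which also rose, is not shown. The sequences are from RefSeq on GRCh38.p14, cover up to 250 bases and are written on the strand of the gene. The BCL2L11 window lies inside the gene as GENCODE draws it, because some of its transcripts start further upstream. Capitals mark the GC box GGGCGG and the CRE half-site TGACG, read on either strand.
BCL2L11 (chr2:111120664-111120913, plus strand): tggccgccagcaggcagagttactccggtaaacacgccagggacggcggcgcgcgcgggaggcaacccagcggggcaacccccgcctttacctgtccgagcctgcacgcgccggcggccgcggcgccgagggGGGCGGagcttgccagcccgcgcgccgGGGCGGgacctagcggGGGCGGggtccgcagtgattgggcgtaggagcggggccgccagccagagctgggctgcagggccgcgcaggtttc
PMAIP1 (chr18:59899746-59899947, plus strand): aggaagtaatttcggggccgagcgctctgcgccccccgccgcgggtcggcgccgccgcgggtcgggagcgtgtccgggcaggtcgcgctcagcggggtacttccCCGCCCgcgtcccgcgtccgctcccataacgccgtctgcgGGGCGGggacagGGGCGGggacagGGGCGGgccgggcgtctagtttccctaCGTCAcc
BMF (chr15:40108893-40109129, minus strand): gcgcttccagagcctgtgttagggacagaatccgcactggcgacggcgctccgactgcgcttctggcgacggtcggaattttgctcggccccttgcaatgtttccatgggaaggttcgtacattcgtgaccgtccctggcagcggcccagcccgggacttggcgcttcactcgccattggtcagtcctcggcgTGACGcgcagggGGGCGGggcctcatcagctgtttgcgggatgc

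The BCL2L11 window had 76.8% G and C and held 3 GC boxes. The PMAIP1 window had 76.2% G and C, with 4 GC boxes and 1 CRE half-site, and the BMF window had 64.6% G and C with 1 of each. Neither the E-box CACGTG nor the TATA box TATAAA was found in these 3 windows. Over the full windows, which also cover the first bases after the start, 45% of all 35116 in RefSeq held a GC box, 24.6% a CRE half-site, 11.5% a TATA box and 7.26% an E-box. Of the 11 windows of 9 members (MCL1 was not matched), 6 held a GC box, 5 a CRE half-site, 2 a TATA box and 2 an E-box. The E-box windows were those of BAX and BBC3, and the full BBC3 window had 48% G and C and no GC box. A match describes the letters of a window and not binding by a factor.

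To compare the 2 sides of the family, levels were divided by the length of all annotated exons of each gene, merged into a union (CPM per kilobase). For BAX this union has 2587 bases and the longest transcript 1358, for BBC3 3180 and 1838, and for BAK1 2212 in both. Levels between genes, shares of a side and ratios of sums on this scale therefore depend on the choice of length. On this scale MCL1 and BCL2L1 made up most of the anti-apoptotic side in the control, with means of 54.7 ± 0.242 and 43.6 ± 4.31 (SD, n = 2), and BCL2 stood at 6.34 ± 0.382 (SD, n = 2). On the pro-apoptotic side BAX (28.8 ± 6.49), BAK1 (19.7 ± 3.32) and PMAIP1 (18.1 ± 1.71) were most abundant in the control, followed by BMF (6.24 ± 0.509), BCL2L11 (2.8 ± 0.234) and BBC3 (1.42 ± 0.433; all SD, n = 2). With this length BAK1 and PMAIP1 did not differ beyond their spread, and neither did BCL2 and BMF. The closeness of BCL2 and BMF depends on the length used. The exon union of BCL2 has 11765 bases and its longest transcript 7461, against 5447 and 4687 for BMF.

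Each member's share of its side was also computed. MCL1 made up 52.3% ± 2.08 of the summed anti-apoptotic level in the control, 54.3% ± 2.91 with romidepsin, 48.3% ± 0.547 with quisinostat and 62.9% ± 1.11 with mivebresib (SD, n = 2). BCL2 made up 6.07% ± 0.579 in the control and 2.33% ± 0.171 with mivebresib. BCL2L11 made up 3.65% ± 0.251 of the summed pro-apoptotic level in the control, 7.21% ± 0.877 with romidepsin, 5.19% ± 0.693 with quisinostat and 12.5% ± 0.472 with mivebresib. BMF rose from 8.24% ± 1.91 to 18.3% ± 1.6 of it with quisinostat, and BAX made up 37.2% ± 2.79 in the control, 28.8% ± 2.72 with romidepsin, 27.5% ± 1.24 with quisinostat and 25.9% ± 0.104 with mivebresib.

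**Figure D3:**
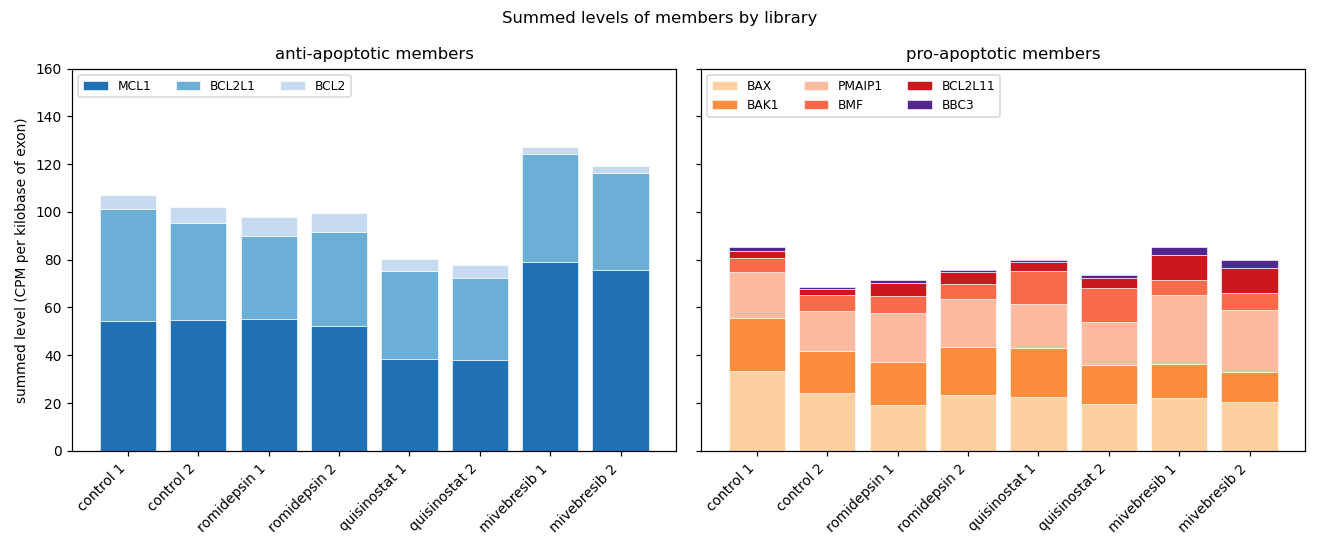
Summed level in CPM per kilobase of exon (vertical axis, from 0) of the anti-apoptotic members (left) and the pro-apoptotic members (right) in each of the 8 libraries, with 1 colour per gene. The anti-apoptotic sum is lowest with quisinostat (80.4 and 78.0) and highest with mivebresib (127.1 and 119.2), and the red parts for BCL2L11 are tallest with mivebresib.

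The anti-apoptotic sum was 107.2 and 102.0 CPM per kilobase in the control, 98.0 and 99.7 with romidepsin, 80.4 and 78.0 with quisinostat, and 127.1 and 119.2 with mivebresib. The pro-apoptotic sum was 85.3 and 68.8 in the control, 71.3 and 75.8 with romidepsin, 80.0 and 73.4 with quisinostat, and 85.2 and 79.7 with mivebresib. With the TMM scaling, the pro-apoptotic sums of all 6 drug libraries thus lay within the range of the controls. The anti-apoptotic sums lay below both controls with romidepsin and quisinostat and above both with mivebresib. The TMM factors were 0.9617 and 0.9395 (control), 1.002 and 0.9964 (romidepsin) and 1.093 and 1.091 (quisinostat). Under another scaling, which was not computed, romidepsin could change place on the anti-apoptotic side and quisinostat on the pro-apoptotic side. The ratio of the sums does not depend on these factors. The ratio of the anti-apoptotic to the pro-apoptotic sum was 1.26 and 1.48 in the control, 1.37 and 1.32 with romidepsin, 1.01 and 1.06 with quisinostat, and 1.49 and 1.49 with mivebresib. Against the control the log2 ratio differed by -0.02 with romidepsin, within the overlap of the libraries, and by -0.40 with quisinostat, where the libraries were separate. With mivebresib it differed by 0.13, which is close to the SD within groups of 0.119. The mivebresib libraries (0.5764 and 0.5798) were also separate from the controls (0.3298 and 0.5685), by a narrow margin. The difference with mivebresib was 0.01 without control replicate 1 and 0.25 without control replicate 2.

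The sign for mivebresib depended on how the members were combined, since it was -0.71 with the mean log2 CPM over members and -0.47 without MCL1 and BAX. With 2 libraries in each group no permutation of the labels could bring this single value below the usual threshold, and no p is given. Against the BH3-only genes alone, the anti-apoptotic sum gave a log2 ratio of 1.88 ± 0.044 in the control, 1.57 ± 0.071 with romidepsin, 1.09 ± 0.042 with quisinostat and 1.36 ± 0.02 with mivebresib (SD, n = 2). All 6 drug libraries lay below both controls in this ratio. These are sums of RNA levels, which need not follow the proteins.

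Genes that act beside the members were examined as lists. The first list held 14 other tested genes, most of them of the BCL2 family. Of these, 1 rose and 5 fell with romidepsin, 1 rose and 7 fell with quisinostat, and 3 rose and 5 fell with mivebresib. The list includes BCLAF1, BFAR and TMBIM6, which are not family members. BCLAF1 fell with both HDAC inhibitors and BFAR with all 3 drugs, so these decreases are part of the counts. For all the lists below, the shares of all tested genes that rose and fell were 15.2% and 15.8% with romidepsin, 28% and 25.1% with quisinostat, and 22.2% and 24.1% with mivebresib, or 31%, 53.2% and 46.2% in either direction. BIK, another BH3-only gene, rose with all 3 drugs from 0.779 and 0.365 CPM in the control to 2.16 and 1.55 CPM with romidepsin, 3.64 and 2.01 CPM with quisinostat, and 2.38 and 2.48 CPM with mivebresib. Its log2 FC was 1.68 (edgeR adjusted p = 0.0198), 2.29 (edgeR adjusted p = 0.00182) and 2.07 (edgeR adjusted p = 0.00412). The counts of BIK were low, and the call with romidepsin was lost without romidepsin replicate 1 (adjusted p = 0.12). BAD, BID and HRK, also BH3-only genes of this list, had no increase called. BAD fell with mivebresib (log2 FC -0.85, edgeR adjusted p = 0.0118) and BID with quisinostat (log2 FC -0.38, edgeR adjusted p = 0.0149). HRK fell with quisinostat (log2 FC -0.32, edgeR adjusted p = 0.0363) and mivebresib (log2 FC -0.31, edgeR adjusted p = 0.0478). The list had a median log2 FC of -0.19 (romidepsin), -0.32 (quisinostat) and 0.03 (mivebresib).

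A list of 18 caspases, apoptosome genes and other genes of cell death was tested. It includes the death receptor caspases CASP8 and CASP10 and the mitochondrial channel genes VDAC1, VDAC2 and VDAC3. With romidepsin 2 rose and 5 fell, with quisinostat 3 rose and 5 fell, and with mivebresib 1 rose and 5 fell, so that the share called was below that of all genes with quisinostat and mivebresib. The list's median log2 FC was -0.20, -0.06 and -0.10. CASP10, an initiator caspase of death receptors, stood at 8.25 and 8.84 CPM in the control, 14.1 and 13.3 CPM with romidepsin, 21.8 and 19.3 CPM with quisinostat, and 3.55 and 2.80 CPM with mivebresib. It thus rose with both HDAC inhibitors (log2 FC 0.68 and 1.26, edgeR adjusted p = 0.00466 and 6.64e-05) and fell with mivebresib (log2 FC -1.43, edgeR adjusted p = 0.000102). CASP8, the other death receptor initiator, stood at 18.1 and 17.1 CPM in the control and fell to 8.16 and 8.13 CPM with mivebresib (log2 FC -1.11, edgeR adjusted p = 3.28e-05). It did not pass with romidepsin (17.4 CPM in both libraries) or quisinostat (19.1 and 18.4 CPM). ENDOG, a mitochondrial nuclease, fell with romidepsin (log2 FC -1.23, edgeR adjusted p = 0.00211) and quisinostat (log2 FC -0.62, edgeR adjusted p = 0.0183). The second call was lost without control replicate 1 (log2 FC -0.32) and without either quisinostat library (log2 FC -0.59 and -0.65). It was also lost with library size alone (edgeR adjusted p = 0.0852) and with only the 4 libraries of the comparison (edgeR adjusted p = 0.0525).

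The inhibitors of apoptosis, a family whose best known member XIAP blocks caspases, had more decreases than increases with each drug. Of 8 tested, 1 rose and 4 fell with romidepsin, 7 fell with quisinostat and 4 fell with mivebresib, when 15.8%, 25.1% and 24.1% of all genes fell. The 8 include CFLAR, a regulator of CASP8 that is not of this family and that fell with each drug. Its log2 FC was -0.482 with romidepsin, -0.535 with quisinostat and -0.889 with mivebresib (edgeR adjusted p = 0.00669, 0.00184 and 0.000152). The list's median log2 FC was -0.32, -0.58 and -0.38. BIRC5 (survivin), which also serves in cell division, had a log2 FC of -1.04 with romidepsin (edgeR adjusted p = 0.00059), -1.67 with quisinostat (edgeR adjusted p = 1.56e-05) and -1.25 with mivebresib (edgeR adjusted p = 8.83e-05). BIRC7 (livin), which is abundant in melanoma, went from 28.0 and 25.6 CPM in the control to 13.3 and 12.4 CPM with quisinostat and 7.94 and 7.98 CPM with mivebresib. Its log2 FC was -1.06 (edgeR adjusted p = 3.51e-05) and -1.75 (edgeR adjusted p = 5.61e-06), and with romidepsin it stood at 23.0 and 21.6 CPM and did not pass.

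Of 14 tested transcription factors that are reported to control members, 5 rose and 5 fell with romidepsin, 3 rose and 9 fell with quisinostat, and 5 rose and 6 fell with mivebresib, shares above the 31%, 53.2% and 46.2% of all genes called. MITF fell with quisinostat (log2 FC -1.39, edgeR adjusted p = 4.19e-06) and mivebresib (log2 FC -1.47, edgeR adjusted p = 4.67e-06). BCL2 was lower with the same drugs, but by unlike amounts (log2 FC -0.25 and -1.14), and its call with quisinostat was lost under several alternatives. With romidepsin MITF stood at 293.4 and 308.3 CPM, against 350.7 and 349.4 CPM in the control, without passing the test. E2F1 fell with all 3 drugs (log2 FC -1.21, -1.88 and -0.78).

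The stress factors ATF3 and DDIT3 (CHOP) both rose with mivebresib. ATF3 stood at 14.9 and 11.6 CPM in the control and 43.7 and 44.8 CPM with mivebresib (log2 FC 1.73, edgeR adjusted p = 3.28e-05), and it also rose with romidepsin (log2 FC 0.87) and quisinostat (log2 FC 0.71). DDIT3 rose with mivebresib from 8.82 and 6.79 to 18.4 and 20.8 CPM (log2 FC 1.33, edgeR adjusted p = 0.000337) and stayed between 7.04 and 9.43 CPM in the libraries of the HDAC inhibitors. MYC was lower with quisinostat (log2 FC -0.71, edgeR adjusted p = 7.39e-05) and higher with mivebresib (log2 FC 0.78, edgeR adjusted p = 5.63e-05). Its rise with romidepsin was small (log2 FC 0.24, edgeR adjusted p = 0.0343) and was lost without any single drug library (adjusted p from 0.0604 to 0.168), with no filter on low counts (adjusted p = 0.0783) and with only the 4 libraries of the comparison (adjusted p = 0.113). These factors were read only as RNA levels, and their part in the changes of the members was not tested.

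Among 9 tested genes that act on the turnover of MCL1 and BIM proteins, 1 rose and 1 fell with romidepsin, 1 rose and 2 fell with quisinostat, and 2 rose and 2 fell with mivebresib, in each case a smaller share than among all genes (31%, 53.2% and 46.2%). The log2 FC of these genes ran from -0.39 to 0.77 with mivebresib. Across the lists, BCL2L10, BCL2L14, TP73 and TRIM17 had too few counts to be tested, and MARCHF5 appeared in the table under its older symbol MARCH5.

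**Figure D4:**
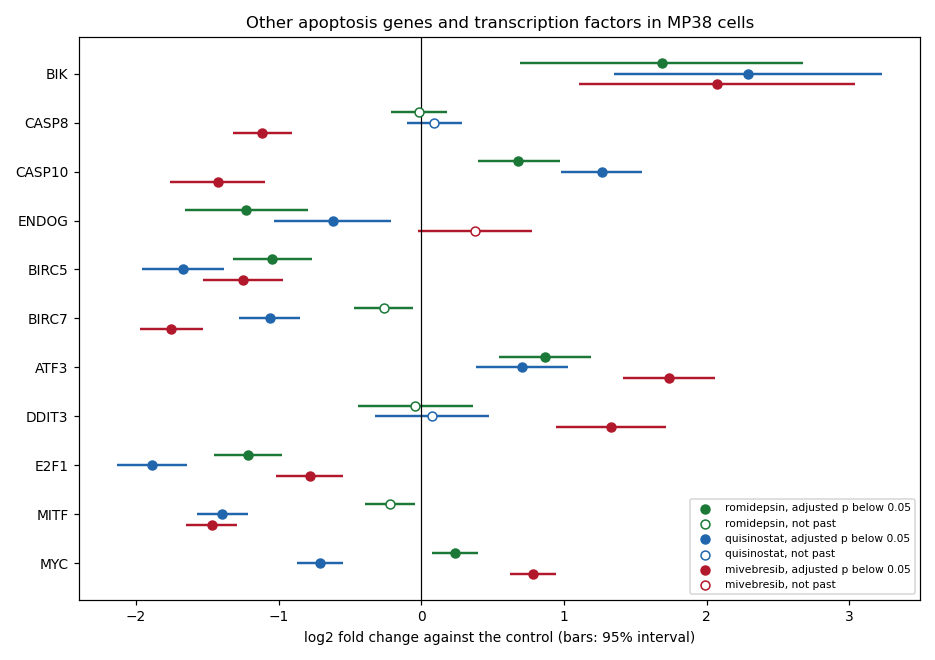
Log2 FC against the control (horizontal axis) of 11 genes from the lists around the BCL2 family, for romidepsin, quisinostat and mivebresib, with bars for the 95% interval and filled points where the adjusted p was below 0.05. BIRC5 and E2F1 lie below 0 with all 3 drugs, BIK and ATF3 above 0, and CASP10 lies above 0 with the HDAC inhibitors and at -1.43 with mivebresib.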

How the data were processed

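MP38 cells were profiled by bulk RNA sequencing with 2 libraries for each of 4 groups. The authors deposited counts per gene symbol, made from the reads with BioJupies and neither normalized nor pooled. The submitters' processing notes name build hg38, and the aligner, annotation and strand setting are not given in the sources used here. The other deposited tables hold normalized versions and were not used.

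The test was that of edgeR 4.0.16 under R 4.3.3 (TMM factors, filterByExpr by group, quasi-likelihood test, 1 model of 8 libraries), with a biological coefficient of variation of 0.0938. The study used limma, and limma 3.58.1 (voom) and DESeq2 1.42.0 were alternatives, beside other scaling, filters, subsets and the replicate block. Intervals of log2 FC are 95% intervals, and the limit for a count of 0 (3 counts) covers counting error only. Exon lengths and overlaps came from GENCODE 29 on GRCh38, and promoter windows from RefSeq on GRCh38.p14. The pipeline was tested on simulated counts.

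The members and gene lists were chosen with earlier results of these data known. Named, apart from results not reported here, were all members, listed genes past an adjusted p of 0.05 with a log2 FC beyond 1 for any drug, MITF, MYC and E2F1, and the 3 genes most correlated with a member past both thresholds (log2 FC beyond 1.5). Replicate numbers did not pair the samples, so the main model has no block.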

Additional observations from a re-analysis of the deposited data

Results flagged for a closer look

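Changes in opposite directions under different drugs, each past the test against the control and different when the drugs were compared directly in edgeR, were found for 5 genes. BCL2 rose with romidepsin and fell with quisinostat (direct log2 FC -0.60, adjusted p = 0.000958) and with mivebresib (direct log2 FC -1.49, adjusted p = 5.38e-06). MCL1 fell with quisinostat and rose with mivebresib, with a direct log2 FC of 1.02 (adjusted p = 1.58e-05). BBC3 fell with romidepsin and rose with mivebresib, with a direct log2 FC of 1.97 (adjusted p = 8.86e-05). CASP10 rose with both HDAC inhibitors and fell with mivebresib, with a direct log2 FC of -2.11 against romidepsin (adjusted p = 1.12e-05) and -2.69 against quisinostat (adjusted p = 2.18e-06). MYC fell with quisinostat and rose with romidepsin (direct log2 FC -0.95 for quisinostat against romidepsin, adjusted p = 8.68e-05) and with mivebresib (direct log2 FC 1.49 for mivebresib against quisinostat, adjusted p = 1.71e-06). Of the decreases and increases against the control behind these pairs, those of BCL2 with romidepsin and quisinostat, of BBC3 with romidepsin and of MYC with romidepsin were lost under some alternatives, while the direct differences kept their calls in all of them.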

How the results depend on the processing

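With only the 4 libraries of each comparison, 1 member was called with romidepsin in place of 3 and 3 with quisinostat in place of 6, and an adjusted p below 0.01 gave the same 1 and 3. Library size alone, upper-quartile factors and a mean of at least 5 CPM each gave 3 with quisinostat. Adding a log2 FC beyond 1.5 left 0 members (romidepsin), 0 (quisinostat) or 1 (mivebresib) against the control, 0 between the HDAC inhibitors, and 1 for mivebresib against each of them. Leaving out 1 library gave 1 to 5 members (romidepsin), 3 to 6 (quisinostat) or 5 to 7 (mivebresib). The cause was not tested. Library size alone moved the median of all genes with quisinostat to 0.20 and upper-quartile factors to 0.13, and the share of all calls that were increases went from 52.7% to 72.4% and 65.4%. With romidepsin it went from 49.1% to 62.1% and 63.4%. Values near 0 changed sign under library size alone, upper-quartile factors and a mean of at least 5 CPM, in that order: MCL1 with romidepsin (0.046, 0.058 and 0.032), BAK1 with romidepsin (0.018, 0.031 and 0.007) and quisinostat (0.106, 0.036 and 0.001), PMAIP1 with quisinostat (0.195, 0.125 and 0.091), and BAX for quisinostat against romidepsin (0.122, 0.039 and 0.029). BCL2L1 with mivebresib did so under the last 2 (0.022 and 0.004). Without single libraries these ranged from -0.071 to 0.014 for MCL1, from -0.216 to 0.155 and -0.262 to 0.086 for BAK1, from -0.105 to 0.093 for PMAIP1, from -0.124 to 0.081 for BCL2L1 and from -0.146 to 0.135 for BAX. The level ratio against the control moved to -0.27 with romidepsin and -0.47 with mivebresib without MCL1 and BAX, and to -0.71 with mivebresib for the mean log2 CPM.

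The deviations of same-numbered libraries correlated between -0.162 and 0.158, so the numbers name the wells only. The replicate block gave 3 members (romidepsin), 5 (quisinostat) and 6 (mivebresib), and the calls of BCL2L1 with quisinostat (adjusted p = 0.0555) and MYC with romidepsin (adjusted p = 0.0507) were lost. With 2 libraries in each group, the spread between wells limits these results more than depth does.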
